A study of Mus musculus with 92 samples.

Results

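The response of new RNA to loss of GABPA was set against the response of total RNA in the same mouse embryonic stem cell line at 12 h. The members were the 12609 genes that passed the low-count filter in both assays, matched by gene ID, of 56953 gene IDs in the files. RNA-seq tested 16396 genes and SLAM-seq tested 15887 genes. The cells were B6 mouse embryonic stem cells of the genotype GabpadTAG/dTAG, in which both copies of Gabpa carry a dTAG degron, and they grew in serum with LIF, PD0325901 and CHIR99021. A dTAG degron is a protein tag that the small molecule dTAG-13 links to a ubiquitin ligase, so that the tagged protein is degraded. The treatment was 500 nM dTAG-13 for 12 h, with DMSO as the control, and the DMSO cells carry the tag as well. Each of the 4 groups (dTAG-13 and DMSO, RNA-seq and SLAM-seq) had 2 libraries, which makes 8 of the 92 samples of the series. The number of clones behind the line and the separate origin of replicate cultures are not given in the sources used here, so p-values measure the spread between these libraries only.

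RNA-seq measured polyadenylated RNA of any age. SLAM-seq adds 4-thiouridine (500 µM here), which is built into RNA as it is made and is read as a T-to-C conversion, so that converted reads count new RNA. Reads without a conversion come from older RNA and from new RNA in which no conversion was read. For the 12 h SLAM-seq libraries the labelling time was not given in the sources used here. As background, the level of a message follows both its synthesis and its decay: a change of synthesis appears first in new RNA, and total RNA follows at a pace set by the life of the message. GABPA is an ETS-family factor that binds DNA with a GGAA core and pairs with GABPB1 or GABPB2. It is known for driving housekeeping promoters, among them those of mitochondrial and translation genes.

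Totals were 17.2 to 21.4 M counts in the RNA-seq libraries. The SLAM-seq libraries had 14.7 to 30.7 M reads, and their converted reads numbered 1.78 to 4.25 M. New RNA was the noisier measure, with a biological coefficient of variation of 0.143 against 0.0608 in RNA-seq. The Pearson correlation of log2 CPM between replicates was 0.992 to 0.993 in RNA-seq and 0.967 to 0.976 for converted reads. Of 10 stem cell markers, 10 exceeded 1 CPM (counts scaled to the library total) in every library. Feeder fibroblast markers summed to 6.76 to 9.46 CPM in RNA-seq, to 4.42 to 4.49 CPM in the DMSO SLAM-seq libraries and to 12.0 to 20.2 CPM in the dTAG-13 SLAM-seq libraries. Markers of differentiated lineages summed to 56.1 to 58.8 CPM with DMSO and 35.3 to 35.4 CPM with dTAG-13 in RNA-seq, and to 9.27 to 11.9 CPM and 16.1 to 18.9 CPM in SLAM-seq. The part of these markers in the differences was not tested, and in bulk samples fewer cells of a kind and less RNA per cell cannot be told apart. All changes are relative to the other genes of the same measure.

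The difference between the response of new RNA and the response of total RNA was called in 1533 of 12609 genes (12.2%), at an adjusted p under 0.05 by edgeR's quasi-likelihood test. New RNA lay above total RNA in 482 genes (3.82%) and below it in 1051 genes (8.34%), and 558 of the 1533 differed by over 2-fold. On their own, new RNA rose in 1665 (13.2%) and fell in 2445 (19.4%) of these 12609 genes, while total RNA rose in 3427 (27.2%) and fell in 3225 (25.6%). Across genes, both responses had a Pearson correlation of 0.70 and a Spearman correlation of 0.65, and a line through them gave 0.644 of log2 change in total RNA per unit of change in new RNA. The absolute difference was under 0.5 in 64.9% of genes, and the median difference was -0.02. Of all 15887 genes of SLAM-seq, new RNA rose in 1952 (12.3%) and fell in 2905 (18.3%), and without DMSO replicate 1 or 2 it rose in 1075 or 1079. The number of called differences moved as well when 1 library was left out: without RNA-seq DMSO replicate 1 or 2, RNA-seq dTAG-13 replicate 1 or 2, or SLAM-seq DMSO replicate 1, between 233 and 305 genes lay above and between 504 and 680 below. Without SLAM-seq dTAG-13 replicate 1 or 2 there were more, 564 and 609 above and 1255 and 1109 below.

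**Figure D1:**
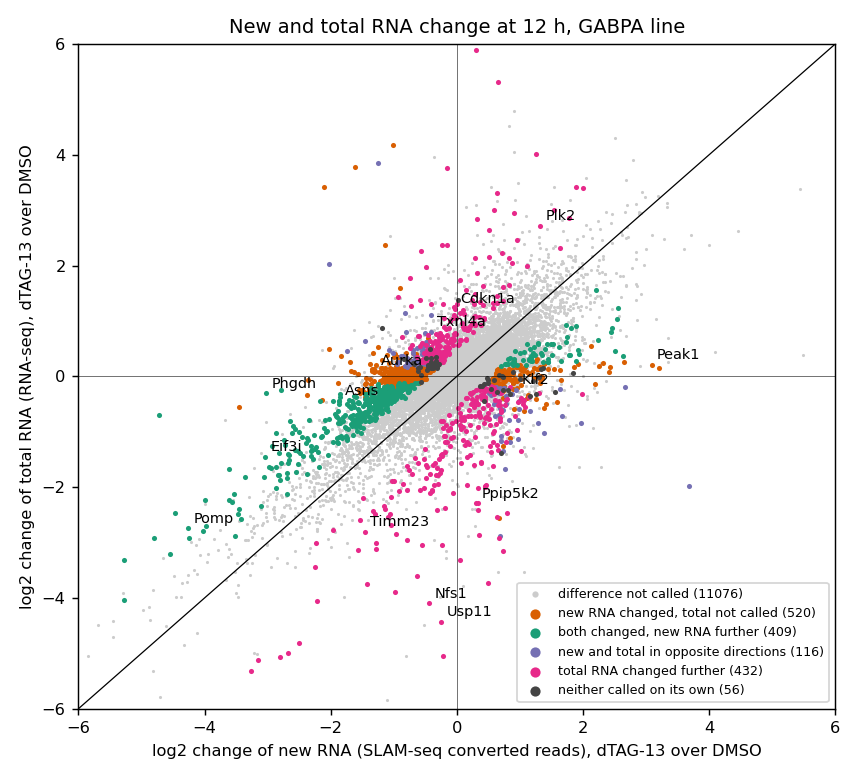
Log2 change of new RNA (horizontal) against log2 change of total RNA (vertical), dTAG-13 over DMSO at 12 h, for the 12609 genes tested in both assays, of which 4 lie outside the axes. Coloured points are the 1533 genes with a called difference, by how new and total RNA were called, and the diagonal marks equal change: 1051 of them lie to its left and 482 to its right.

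The RNA of the GABP subunits checks no degradation, because the degron acts on protein, but it shows both measures in a small family. Gabpb1 RNA (mm39 chr2:126469362-126518257, minus strand) stood at 51.5 and 40.5 CPM with DMSO and at 139 and 149 CPM with dTAG-13 in RNA-seq, and at 116 and 128 against 273 and 256 CPM among converted reads. Groups did not overlap in either assay. The change was 1.65 in total and 1.12 in new RNA (log2), and their difference of -0.53 ± 0.18 (SE) was not called (adjusted p = 0.0557). Gabpb2, the paralog, rose by 0.88 in total and 0.78 in new RNA, with a difference of -0.10 ± 0.17 that was not called (adjusted p = 0.74). Gabpa itself rose by 0.53 in total RNA, while its change in new RNA of 0.16 did not pass the test and the difference of -0.38 was not called (adjusted p = 0.171, edgeR's quasi-likelihood test). New RNA of Gabpa had risen by 0.99 at 2 h and 0.83 at 4 h, and that of Gabpb1 by 1.21 at 2 h, also called at 4 h. At those times new RNA rose in 16 (0.127%) and 14 (0.111%) of the 12609 genes. The intervals of Gabpa and Gabpb1 overlap those of Atp5j and Gm27003 on the other strand.

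The unconverted reads of the same SLAM-seq libraries gave another measure from the libraries of new RNA, and they split each difference into a part between the assays and a part within SLAM-seq. The change of unconverted reads differed from that of RNA-seq in 1858 genes above (14.7%) and 2515 below (19.9%) of 12607 genes. It departed in the same called direction for 330 of the 482 genes with new RNA above total and for 852 of the 1051 below, together 77.1%, and it was the larger of the 2 parts in 83.4% of the 1533 genes. Within SLAM-seq, converted reads rose beyond unconverted reads in 908 genes (7.2%) and fell beyond them in 634 (5.03%). That split depended on the scaling: with TMM factors over all genes of each measure, 3274 and 379 genes were called, the median moved from 0.02 to 0.32, and unconverted reads stood above RNA-seq in 1049 and below it in 4275 genes. Under that scaling the shared calls were 225 of 482 and 973 of 1051. Single libraries also moved the count within SLAM-seq: it was 217 above and 248 below without DMSO replicate 1, 292 and 322 without DMSO replicate 2, and 1553 and 1321 without dTAG-13 replicate 1. For unconverted reads against RNA-seq, leaving out any one of the 4 RNA-seq libraries or SLAM-seq DMSO replicate 1 left 1031 to 1156 genes above and 1497 to 1728 below.

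**Figure D2:**
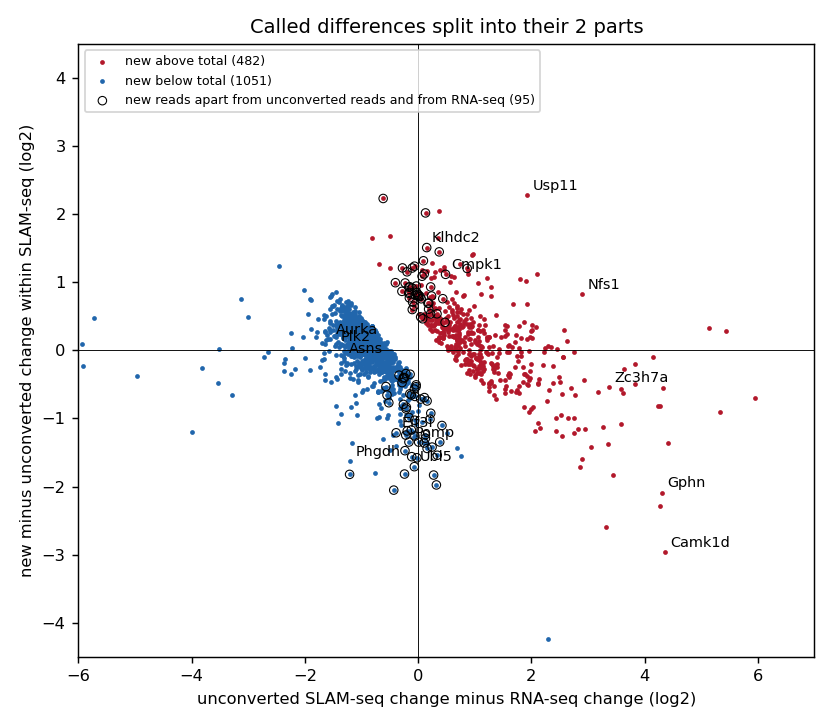
Each point is one of the 1533 genes with a called difference, placed by the change of unconverted SLAM-seq reads minus that of RNA-seq (horizontal, log2) and by the change of converted minus that of unconverted reads (vertical, log2), and 3 genes lie outside the axes. Both axes contain the unconverted reads with opposite sign, so an error in them shifts a point along the falling diagonal. Most points are far from 0 on the horizontal axis, and in the 95 circled genes only the vertical value was called.

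A fall of new RNA with no called change of total RNA was the most frequent pattern, in 392 genes, and 128 genes had the matching rise. Among the falls was Aurka, which encodes a mitotic kinase. It lies at mm39 chr2:172198110-172212455 on the minus strand. Its converted reads stood at 844 and 868 CPM with DMSO and 383 and 312 CPM with dTAG-13, while RNA-seq gave 158 and 151 against 169 and 162 CPM. The dTAG-13 libraries were far lower in new RNA and slightly higher in total RNA, with no overlap in either. The changes were -1.29 and 0.10 (log2), and the difference was -1.39 ± 0.15 (adjusted p = 6.5e-06). Unconverted Aurka reads also fell, by 1.45 (log2), so that the difference of converted from unconverted reads was 0.17 and not called. Eif5a, a translation elongation factor, showed -1.13 in new and 0.09 in total RNA, and Eno1, the glycolytic enolase, showed -1.23 and 0.08. The control of new RNA itself differed between times: in the 12 h DMSO libraries, new RNA of the 392 genes stood above that in the 2 h DMSO libraries by a median of 0.74 (log2), and that of the 128 genes that rose stood lower by a median change of -0.48, against 0.01 over all genes. For Aurka this shift was 1.34, for Eif5a 1.29 and for Eno1 1.22, about as large as their falls. The shift and the fall share the 12 h DMSO libraries, with opposite sign, and its part in the differences was not tested. Converted reads made up 14.12% and 13.99% of reads in the 12 h DMSO libraries and 10.42% and 11.35% in the 2 h DMSO libraries. As the labelling time at 12 h was not given, a change of the control and a difference in labelling cannot be told apart in this shift. In 329 of these 392 genes the unconverted reads had the same called departure from RNA-seq.

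Falls in both measures, with new RNA further down, numbered 347, and the matching rises 62. The median change over the 347 genes was -1.41 in new and -0.55 in total RNA, and total RNA was measured at 12 h only. New RNA of these genes stood above the 2 h DMSO level in the 12 h DMSO libraries by a median of 0.74, with 1.13 for Rfc3 and -0.06 for Pomp. New RNA of 119 of the 347 genes had already fallen at 4 h of dTAG-13, against 591 of all 12609 genes (4.69%), and 97 had fallen at 2 h, against 488 (3.87%). Among the 392 genes in which new RNA fell and total RNA was not called, 16 had fallen at 4 h and 6 at 2 h. At 1 h new RNA fell in 273 (1.72%) and rose in 9 (0.0567%) of the 15887 genes of SLAM-seq. The SLAM-seq libraries at 1, 2 and 4 h are separate samples from those at 12 h, and those at 2 and 4 h share their DMSO libraries. Pomp, the proteasome maturation factor that helps assemble the core particle, lies at mm39 chr5:147797271-147813266 on the plus strand. Its converted reads stood at 224 and 178 CPM with DMSO and 10.9 and 9.44 CPM with dTAG-13, and RNA-seq at 145 and 136 against 19.8 and 22.2 CPM. All dTAG-13 libraries lay far below all DMSO libraries. New RNA changed by -4.27, total RNA by -2.74, and the difference was -1.53 ± 0.25 (adjusted p = 0.00032). Pomp new RNA had fallen at 1, 2 and 4 h by 1.80, 1.81 and 2.40 (log2). Rfc3, a subunit of the clamp loader of DNA replication, fell by 3.56 in new and 2.28 in total RNA, with falls of new RNA of 1.11, 1.33 and 1.66 at 1, 2 and 4 h. Lsm1, a decapping cofactor, fell by 1.80 in new and 0.74 in total RNA, and its converted minus unconverted change of 0.14 was not called. In 275 of the 347 genes the unconverted reads had the same called departure from RNA-seq, and their median change over the 347 was -1.44. Converted reads were called below unconverted reads in 36 of the 347.

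**Figure D3:**
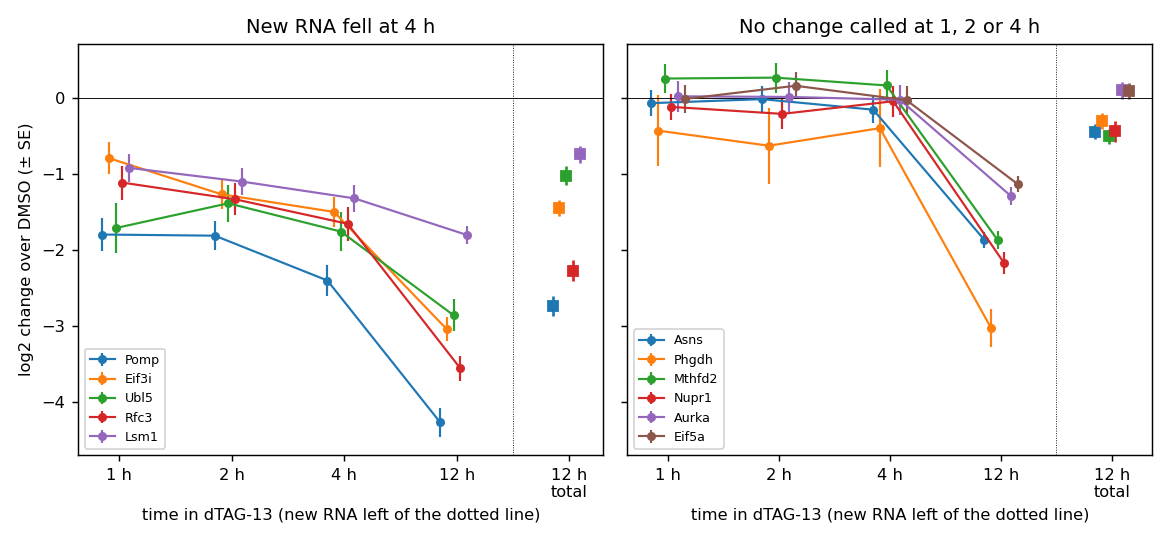
Log2 change over DMSO (± SE) of new RNA at 1, 2, 4 and 12 h of dTAG-13 and, right of the dotted line, of total RNA at 12 h. In the left panel (Pomp, Eif3i, Ubl5, Rfc3, Lsm1) new RNA fell at 4 h, and in the right panel (Asns, Phgdh, Mthfd2, Nupr1, Aurka, Eif5a) no change was called before 12 h. In all 11 genes the 12 h value of new RNA lies below that of total RNA.

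Genes of amino acid supply had some of the smallest p-values among the differences in which new RNA fell beyond total RNA. The list of the integrated stress response, the ATF4 program that raises amino acid synthesis and tRNA charging, had 15 of its 32 tested members below and 0 above, beside 8.34% below and 3.82% above over all genes, and a median difference of -0.59 against -0.02. Asns, which makes asparagine (mm39 chr6:7675169-7693254, minus strand), stood at 1608 and 1521 CPM among converted reads with DMSO and at 447.5 and 409 CPM with dTAG-13, while RNA-seq gave 771 and 794 against 551 and 601 CPM. Both measures fell with no overlap, the changes were -1.87 and -0.44 (log2), and the difference was -1.42 ± 0.15 (adjusted p = 1.8e-06). Phgdh, the first enzyme of serine synthesis (mm39 chr3:98220486-98247306, minus strand), fell from 48.9 and 43.3 to 6.49 and 3.78 CPM among converted reads but from 189 and 202 to 165 and 152 CPM in RNA-seq. Its changes were -3.02 and -0.30, and the difference of -2.72 ± 0.28 (adjusted p = 1.8e-06) rests on 25 and 6 converted reads in the dTAG-13 libraries. The folate enzyme Mthfd2 changed by -1.87 in new and -0.50 in total RNA, the stress regulator Nupr1 by -2.17 and -0.44, and the seryl-tRNA synthetase Sars by -1.86 and -0.32. In new RNA at 4 h, 0 of the 15 members below had fallen. Over all 32 members, new RNA in the 12 h DMSO libraries exceeded that in the 2 h DMSO libraries by a median of 1.10 (log2), with 0.94 for Asns and 2.58 for Phgdh, and its part in the fall was not tested. Nupr1 had 10.7% multimapping reads. Unconverted reads departed from RNA-seq in the same called direction for 13 of the 15.

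**Figure D4:**
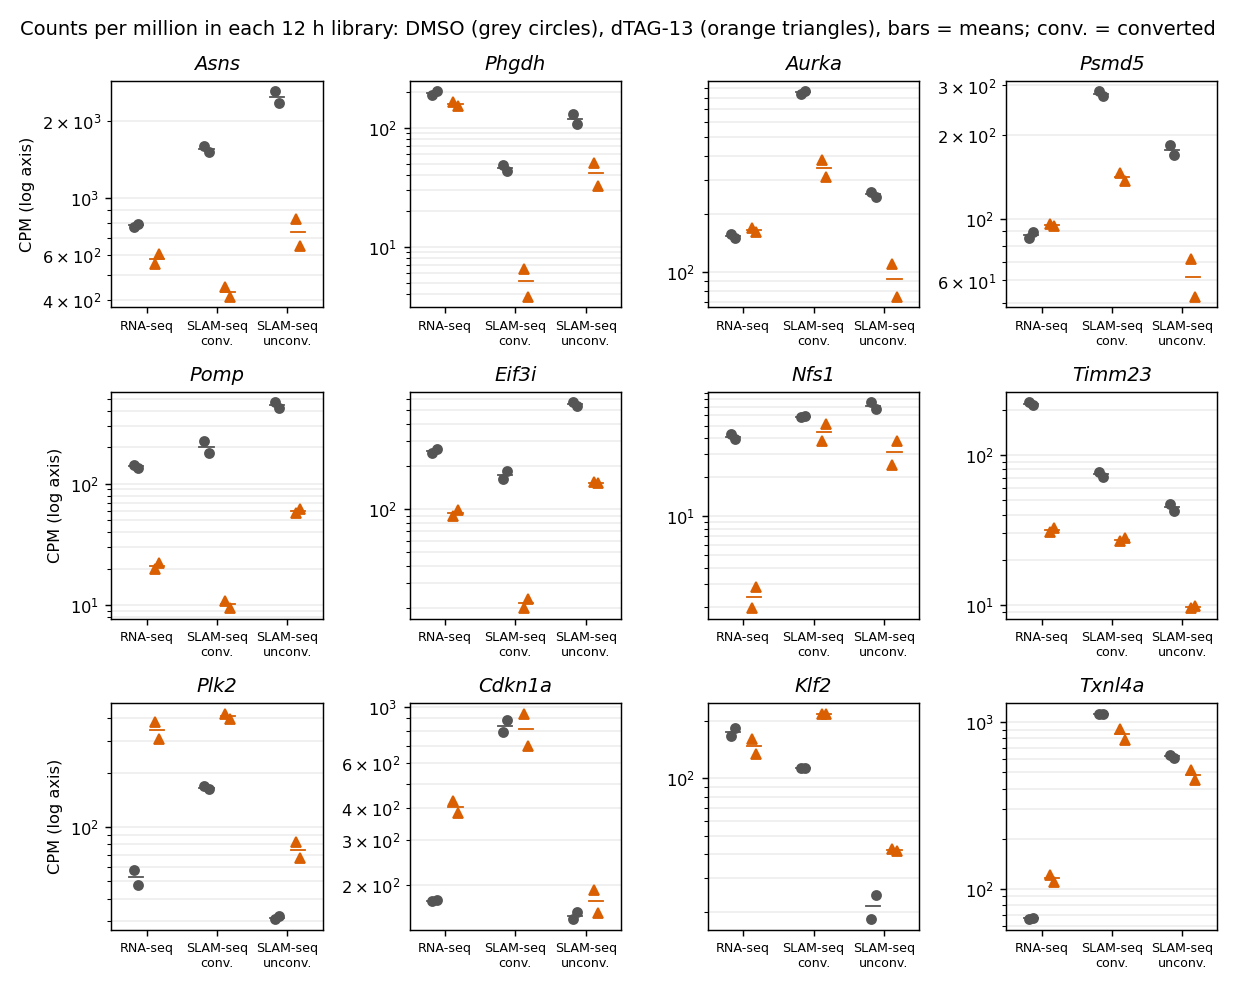
CPM (log axis) of 12 genes in every 12 h library, from RNA-seq, converted SLAM-seq reads and unconverted SLAM-seq reads. Grey circles are DMSO, orange triangles dTAG-13, and bars are means of 2 libraries. For Asns, Aurka and Psmd5 both SLAM-seq measures drop while RNA-seq moves little, and for Nfs1 the RNA-seq drop is the largest of the 3.

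Total RNA that fell beyond new RNA was seen in 226 genes, in 36 of which new RNA fell as well. In 167 of the 226 the unconverted reads had the same called departure from RNA-seq. Converted reads were called above unconverted reads in 24. Median changes over the 226 genes were -1.05 in total RNA, 0.19 in new RNA and 0.02 in unconverted reads. Nfs1, the cysteine desulfurase of iron-sulfur cluster assembly (mm39 chr2:155965559-155986106, minus strand), had 43.0 and 39.4 CPM in RNA-seq with DMSO and 1.94 and 2.83 CPM with dTAG-13. Converted reads stood at 58.3 and 59.1 against 38.2 and 51.6 CPM. Total RNA was apart by a wide margin, whereas new RNA was lower by a small one. The change was -4.10 in total RNA and -0.44 in new RNA, which was not called, and the difference was 3.66 ± 0.27 (adjusted p = 3.1e-08). The interval of Nfs1 overlaps that of Romo1 on the other strand and of Gm28036 on the same strand. Reads of the 2 strands cannot be told apart here, because the sources used here do not say how strand was handled. Timm23, a channel subunit of protein import into mitochondria (mm39 chr14:31902119-31923855, minus strand), had 224 and 217 against 30.5 and 32.7 CPM in RNA-seq and 77.4 and 71.6 against 26.8 and 27.7 CPM among converted reads. It fell in both measures, by 2.80 and 1.46, with a difference of 1.34 ± 0.20 (adjusted p = 0.00016). The mitochondrial ribosomal gene Mrps34 fell by 2.54 in total and 1.10 in new RNA, and its interval overlaps those of Mapk8ip3 and Nme3. For Mrps34 the converted minus unconverted change of -0.50 was called, in the opposite direction to its difference. Usp11, a deubiquitinase (mm39 chrX:20570145-20586778, plus strand), fell by 4.42 in total RNA (46.0 and 45.7 to 1.94 and 2.30 CPM). Its new RNA rested on 17 and 15 converted reads with DMSO and 21 and 14 with dTAG-13, which limits the precision of its difference of 4.17 ± 0.43 (adjusted p = 2.2e-06).

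The promoters of Nfs1, Timm23, Pomp and Rfc3 are shown because genes from both ends of the difference hold the same ETS element. The sequences are RefSeq promoters of the build GRCm38.p6, from 250 bases before to 50 bases after the start, read 5′ to 3′ on the strand of the gene. Capitals mark the 8-base element CCGGAAGT or its reverse complement ACTTCCGG, found by exact match.
Nfs1, chr2:156144137-156144436, minus strand: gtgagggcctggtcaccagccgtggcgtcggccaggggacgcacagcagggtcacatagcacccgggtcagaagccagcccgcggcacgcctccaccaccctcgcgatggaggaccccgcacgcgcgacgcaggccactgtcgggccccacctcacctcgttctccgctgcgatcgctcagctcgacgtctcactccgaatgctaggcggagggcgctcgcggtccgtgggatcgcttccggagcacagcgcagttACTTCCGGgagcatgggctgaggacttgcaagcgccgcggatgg
Timm23, chr14:32201842-32202141, minus strand: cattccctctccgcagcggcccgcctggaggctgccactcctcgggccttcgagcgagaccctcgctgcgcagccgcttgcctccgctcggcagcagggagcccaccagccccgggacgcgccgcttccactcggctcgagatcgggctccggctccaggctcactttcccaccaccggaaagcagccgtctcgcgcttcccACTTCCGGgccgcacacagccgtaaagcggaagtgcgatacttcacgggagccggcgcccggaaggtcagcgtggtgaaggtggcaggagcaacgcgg
Pomp, chr5:147860378-147860677, plus strand: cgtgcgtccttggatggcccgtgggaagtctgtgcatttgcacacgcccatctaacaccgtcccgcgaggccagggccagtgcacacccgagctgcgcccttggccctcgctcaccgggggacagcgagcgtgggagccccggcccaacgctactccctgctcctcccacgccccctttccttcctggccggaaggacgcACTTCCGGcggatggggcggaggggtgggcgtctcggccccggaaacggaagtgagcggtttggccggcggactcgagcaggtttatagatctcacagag
Rfc3, chr5:151651159-151651458, minus strand: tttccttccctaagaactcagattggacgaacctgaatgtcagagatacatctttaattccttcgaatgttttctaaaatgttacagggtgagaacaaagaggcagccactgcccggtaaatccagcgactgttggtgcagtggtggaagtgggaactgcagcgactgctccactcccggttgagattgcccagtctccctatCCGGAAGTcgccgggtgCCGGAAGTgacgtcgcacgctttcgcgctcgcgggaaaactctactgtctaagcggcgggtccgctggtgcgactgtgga
The first 3 hold 1 copy each and Rfc3 holds 2 copies. Searched on both strands, the element was in 899 of the 9358 tested genes with a promoter in the table (9.61%), and in 3.89% of all 32851 promoters of that table. A gene counted if any of its promoters held the element, whereas the 3.89% is per promoter, so these 2 shares are unlike measures. By genes with such a promoter, it was in 47 of 179 where total RNA fell further (26.3%), in 67 of 271 where both fell and new RNA fell further (24.7%), and in 274 of 994 where both fell with no called difference (27.6%). Where new RNA alone fell it was in 33 of 263 (12.5%), where total RNA rose further in 2 of 154 (1.3%), and where neither measure changed in 213 of 3392 (6.28%). A match describes the letters in this window and shows no binding.

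Total RNA that rose beyond new RNA was seen in 206 genes, and the targets of the DNA damage factor p53 stood among them. Of the 38 p53 targets tested, total RNA rose in 35 and new RNA in 30, yet the difference was called below in 7, all with total RNA risen further, and above in 1. For all 7, unconverted reads also had a called departure below RNA-seq, and converted reads were called below unconverted reads in 0 of them. Over all genes, total RNA rose in 27.2% and new RNA in 13.2%, and the difference was called below in 8.34% and above in 3.82%. Earlier results of these data already showed a rise of this list, so its direction is no independent evidence. Plk2, a kinase, had 57.4 and 47.4 CPM with DMSO and 381 and 307 CPM with dTAG-13 in RNA-seq, and 167 and 163 against 424 and 397 CPM among converted reads. Both rose without overlap, by 2.72 and 1.32, and the difference was -1.40 ± 0.18 (adjusted p = 3e-05). Cdkn1a, the cell cycle inhibitor p21, rose from 174 and 174 to 426 and 384 CPM in RNA-seq. Its converted reads, at 794 and 889 against 940 and 701 CPM, overlapped between the groups. The changes were 1.22 and -0.03, with a difference of -1.25 ± 0.17 (adjusted p = 7.7e-05). Mdm2 and Btg2 were picked after their values were seen. Mdm2, the ubiquitin ligase of p53, showed 1.99 in total and 1.11 in new RNA, and Btg2, an antiproliferative factor, 2.32 and 1.63.

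New and total RNA were called in opposite directions in 116 genes. In 39 of them new RNA rose and total RNA fell. In 32 of these 39 the unconverted reads had the same called departure from RNA-seq, with a median change of 0.74 beside 0.75 in new RNA. The median shift of new RNA from the 2 h to the 12 h DMSO libraries was -0.70 in the 39 genes. Klf2, a factor of naive pluripotency, had 114 and 114 CPM with DMSO and 219 and 219 CPM with dTAG-13 among converted reads, and 167 and 183 against 162 and 134 CPM in RNA-seq. New RNA was apart between groups by 0.94 (log2), total RNA fell by 0.24, and the difference was 1.18 ± 0.17 (adjusted p = 0.00012). For Klf2 the converted minus unconverted change of -0.043 was not called. In the other 77, new RNA fell and total RNA rose. The unconverted reads had the same called departure from RNA-seq in 68 of the 77, with a median change of -0.69 beside -0.56 in new RNA. Their median shift between the DMSO libraries was 0.66. Txnl4a, a spliceosome protein, went from 1129 and 1122 to 912 and 784 CPM among converted reads and from 65.5 and 67.2 to 122 and 110 CPM in RNA-seq. Its difference was -1.21 ± 0.15 (adjusted p = 2.7e-05), and its interval overlaps that of Gm16286 on the same strand. Ubb, a ubiquitin gene, showed -0.95 in new and 0.21 in total RNA, with 31.4% multimapping reads.

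The genes in which new RNA stood above total RNA held many reads that map to several places. Of the 482, 158 (32.8%) had at least 5% multimapping reads in the 12 h SLAM-seq libraries, against 2399 of all 12609 genes and 99 of the 1051 genes below (9.4%). Zc3h7a reached 98.6% and Peak1 28.5%. Peak1, a pseudokinase, had 105 and 184 CPM with DMSO and 1129 and 1339 CPM with dTAG-13 among converted reads, and 20.8 and 23.2 against 24.0 and 27.1 CPM in RNA-seq. Each dTAG-13 library lay far above either DMSO library in new RNA, with no called change in total RNA. Gphn, which encodes the scaffold gephyrin, showed 2.42 in new, 4.47 in unconverted and 0.16 in total RNA, with 14.7% multimapping reads. Lars2, a mitochondrial leucyl-tRNA synthetase, showed 2.45, 3.85 and 0.81, with 17.7%. Among the 10210 genes with under 5% multimapping reads, 326 lay above and 962 below, beside 482 and 1051 of all 12609.

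New RNA differed from both the unconverted reads and RNA-seq in 95 of the 1533 genes (6.2%): the converted reads were called apart from the unconverted reads in the direction of the difference, while unconverted reads and RNA-seq were not called apart. Of these, 45 lay above and 50 below, and with TMM factors over all genes, 42 and 22 of them kept these calls while the count as a whole became 138 above and 25 below. The genes named next were chosen from the 95 after their values were seen. Eif3i, a subunit of translation initiation factor eIF3, fell by 3.04 in new, 1.84 in unconverted and 1.45 in total RNA. Its converted reads stood at 163 and 185 CPM with DMSO and 20 and 23.3 CPM with dTAG-13, with no overlap, and new RNA had fallen by 1.27 at 2 h. Ubl5, a ubiquitin-like splicing cofactor, fell by 2.86, 1.09 and 1.02 in the same order, and Pomp by 4.27, 2.90 and 2.74. Of the 50 genes below, 27 fell in total RNA too, and 20 had fallen in new RNA at 4 h. Of the 45 above, 17 had total RNA fallen further. Klhdc2, a substrate receptor of a ubiquitin ligase, had 40.6 and 47.1 CPM with DMSO and 18.96 and 25.8 CPM with dTAG-13 among converted reads. In unconverted reads it went from 42.1 and 41.3 to 7.26 and 7.04 CPM and in RNA-seq from 32.5 and 32.6 to 4.88 and 5.18 CPM. Total and unconverted Klhdc2 RNA thus fell by 2.69 and 2.54, and new RNA by 1.04. Selenok, a selenoprotein of the endoplasmic reticulum, rose by 1.33 in new against 0.39 in unconverted and 0.42 in total RNA.

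Genes of protein degradation, growth and the cell cycle are given beside the share below over all genes, 8.34%. Of 45 proteasome genes, 22 lay below and 0 above, with a median difference of -0.58. Psmd5, a proteasome assembly chaperone, had 286 and 275 CPM with DMSO and 146 and 136 CPM with dTAG-13 among converted reads, and 85.2 and 89.2 against 95.9 and 93.9 CPM in RNA-seq. New RNA changed by -0.99 and total RNA by 0.12, with a difference of -1.11 ± 0.16 (adjusted p = 9.2e-05). For Psmd5 the converted minus unconverted change of 0.50 was called, in the opposite direction to its difference. In 12 of the 22 total RNA was not called, and in 8 total RNA fell by less than new RNA. For 20 of the 22, unconverted reads departed in the same called direction. Converted reads were called below unconverted reads in 2 of the 22. Over all 45 proteasome genes they were called above unconverted reads in 11 and below in 2. Of 53 genes of DNA replication and the entry into S phase, 18 lay below and 1 above. Of 39 genes of G2 and mitosis, 10 lay below and 0 above. Of 20 glycolysis genes, 7 lay below and 1 above. Ribosome assembly factors had 19 of 73 below and 2 above. Of the genes below in these 4 lists, in that order, unconverted reads had the same called departure in 16, 10, 7 and 19. Converted reads were called below unconverted reads in 0 of them. Over all members of these lists, converted reads were called above unconverted reads in 20, 6, 4 and 14, and below in 1, 0, 0 and 0. Over all genes those shares were 7.2% and 5.03%. Over the other lists in this group the median difference was -0.42 for DNA replication, -0.33 for G2 and mitosis, -0.54 for glycolysis and -0.32 for ribosome assembly. The median shift of new RNA from the 2 h to the 12 h DMSO libraries was 0.45 for the proteasome, 0.55 for DNA replication and 0.24 for G2 and mitosis. It was 0.75 for glycolysis and 0.63 for ribosome assembly, against 0.01 over all genes. The interval of Psmd5 overlaps that of Cutal on the other strand.

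Mitochondrial genes are given by the genome that encodes them. Of 76 nuclear genes of oxidative phosphorylation, 22 lay below and 2 above, beside 8.34% and 3.82% over all genes, with a median difference of -0.26. Uqcrc1, a subunit of complex III, changed by -0.93 in new and 0.25 in total RNA, beside a shift of 0.90 between the 2 h and 12 h DMSO libraries. Over all 76 genes the median of that shift was -0.07. Of 13 protein genes of the mitochondrial genome, 4 lay above and 0 below, against 3.82% above over all genes, with a median of 0.21. For all 4, unconverted reads were also called above RNA-seq. Over the 13 genes the median change was 0.54 in new RNA and 0.81 in unconverted reads. Converted reads were called above unconverted reads in 0 of the 13 and below in 2. For mt-Nd2 the converted reads stood at 1974 and 1828 CPM with DMSO and 3536 and 4403 CPM with dTAG-13, and RNA-seq at 658 and 642 against 714 and 728 CPM. New RNA changed by 1.06 and total RNA by 0.15, with a difference of 0.91 ± 0.15 (adjusted p = 0.0005). Its unconverted reads rose by 1.12. Of 81 mitochondrial ribosome genes, 16 lay below and 1 above, and of 52 genes of mitochondrial DNA expression and import, 12 and 2. Unconverted reads had the same called departure from RNA-seq for 15 of these 16 and 9 of these 12 genes below. For oxidative phosphorylation they had it in 13 of the 22.

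**Figure D5:**
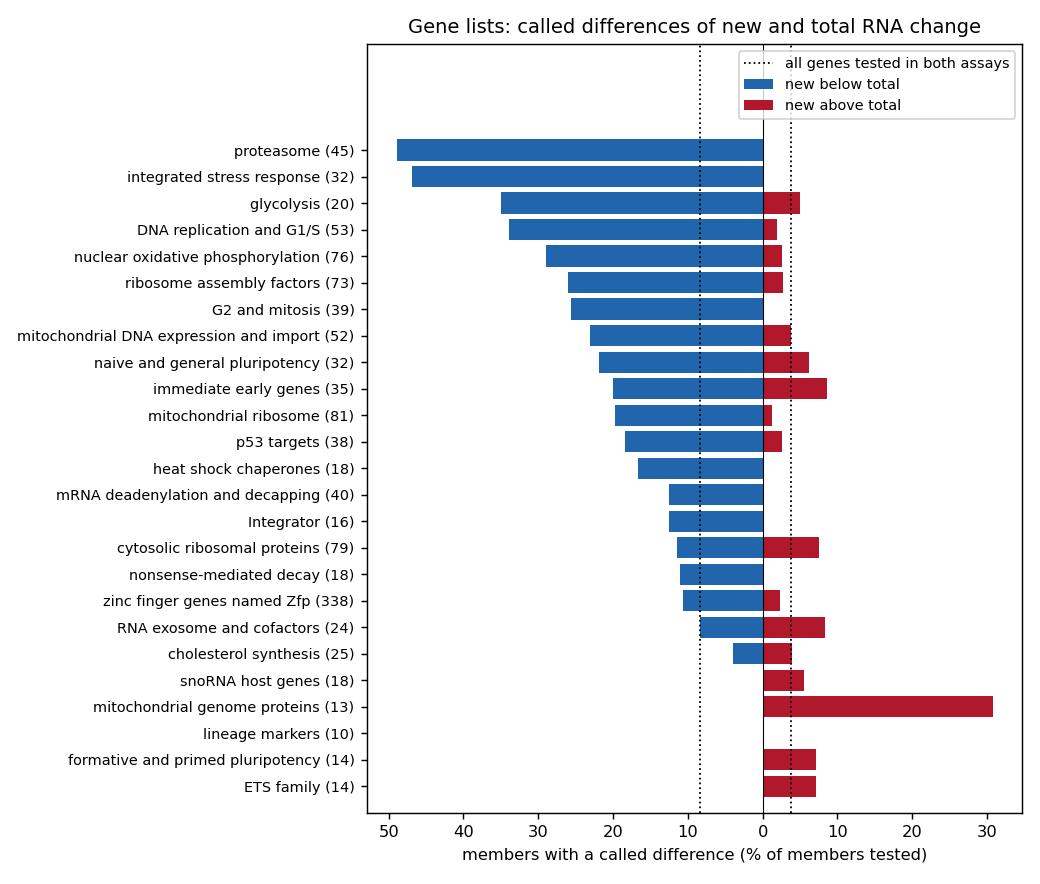
Share of tested members of each gene list (number in brackets, lists of at least 10) with a called difference: blue bars to the left for new RNA below total RNA, red bars to the right for new RNA above. Dotted lines mark 8.34% and 3.82%, the shares over all genes tested in both assays. The proteasome (48.9%) and integrated stress response (46.9%) bars are the longest to the left, and that of the mitochondrial genome (30.8%) the longest to the right.

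The remaining lists hold genes of translation, RNA metabolism, signalling and cell identity, and their counts stand beside 8.34% below and 3.82% above over all genes. Cytosolic ribosomal proteins had 9 of 79 below and 6 above, and their near-identical copies make single members uncertain. Host genes of snoRNAs had 0 of 18 below and 1 above, the deadenylation and decapping list 5 of 40 below and 0 above, the RNA exosome 2 of 24 each way, nonsense-mediated decay 2 of 18 below and 0 above, and Integrator 2 of 16 below and 0 above. Zinc finger genes named Zfp had 36 of 338 below (10.7%) and 8 above (2.37%), near the shares over all genes. Heat shock chaperones had 3 of 18 below and 0 above, immediate early genes 7 of 35 below and 3 above, and cholesterol synthesis 1 of 25 each way. Naive and general pluripotency genes had 7 of 32 below and 2 above, formative and primed genes 0 of 14 below and 1 above, and the ETS family 0 of 14 below and 1 above. None of 4 feeder and 10 lineage markers tested was called.

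The relation of total to new RNA varied with features of the genes. Genes were placed in 5 bins by the share of converted reads in the 2 h DMSO libraries. As background, slow turnover of a message lowers this share, but turnover itself was not measured. In the lowest bin (median share 6.14%), total RNA changed by 0.514 per unit of new RNA, against 0.663 to 0.699 in the other 4. Where new RNA fell, total RNA was called as fallen in 57.6% of genes of the lowest bin and in 67.6% to 74.1% of the others. The share called different was 15.8% in the lowest bin and 10.3% to 12.0% in the others. Unconverted reads had a median change of -0.20 in the lowest bin and 0.27 in the highest. With bins from the 1 h DMSO libraries the contrast was smaller, with slopes of 0.570 in the lowest bin and 0.637 to 0.692 in the others. Where new RNA fell, total RNA was then called as fallen in 63.2% against 67.1% to 71.5%. Gene span moved with the difference as well: its median was -0.20 in the bin of the shortest genes and 0.21 in that of the longest, and the median change of unconverted reads went from -0.31 to 0.82. These bins are descriptions over genes that share the same 8 libraries, and the part of span or multimapping in any gene's difference was not tested.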

How the data were processed

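The members, the gene lists and the rules for naming genes were chosen with earlier results of these data known. For RNA-seq, the authors deposited expected counts per gene (RSEM 1.3.1 and STAR 2.7.11a are among the tools in the submitters' processing notes), and these were rounded to whole numbers. For SLAM-seq, the authors deposited counts of all reads, of reads with T-to-C conversions and of multimapping reads for each gene interval. Their tool was slamdunk 0.4.3, per the file headers, and the submitters' processing notes name the build mm39. Other columns were not used. Unconverted reads are all reads minus converted reads.

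Genes were kept by filterByExpr (minimum count 10, total 15) in each assay over all 12 RNA-seq and 14 SLAM-seq libraries. The 8 libraries at 12 h were fitted together with edgeR 4.0.16 (R 4.3.3), with TMM factors within each measure over the 12609 genes, and the interaction of treatment and assay was tested with the quasi-likelihood test and Benjamini-Hochberg adjustment over all genes. Printed changes come from that fit, and calls of new or total RNA alone come from fits of each assay. Differences of converted and unconverted reads had the library as a block. CPM values are TMM-scaled. Named genes were the GABP subunits, the 10 smallest p in each direction (average log2 CPM of at least 3, no overlap), 4 for each pattern of calls and up to 3 for each list, of which the text gives a part. Predicted genes and IDs with no symbol were left out. A list of 41 replication histones had 0 members tested. Replicate numbers did not pair the libraries (correlation of deviations -0.045 in RNA-seq and 0.076 in SLAM-seq). Replicates differed by more than counting error (chi-square over degrees of freedom from 2.59 to 7.37). The test was tried on simulated data. Of 56953 gene IDs, 52029 received a symbol.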

Additional observations from a re-analysis of the deposited data

Results flagged for a closer look

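The share of multimapping reads in a library, which no comparison between groups tested, stood above the controls in both 12 h dTAG-13 SLAM-seq libraries: 7.2% in replicate 1 and 9.06% in replicate 2, against 3.92% and 4.55% with DMSO. The SLAM-seq libraries at 1, 2 and 4 h, with or without dTAG-13, ranged from 5.14% to 7.97%, so the 12 h DMSO libraries were the lowest of all 14.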

How the results depend on the processing

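With 2 libraries a group, calls are limited by depth and by the spread of new RNA, with a median standard error of 0.256 (log2) for a difference. For the count of genes above and below, the replicate block (607 and 1207), DESeq2 (358 and 708), DESeq2 size factors, another low-count filter, all 26 libraries, limma voom, combined errors and the scaling stayed within 1.5 times of 482 and 1051. With unconverted reads as total RNA the counts were 908 and 634, and among the 6305 genes with at least the median converted share 255 and 476. Leaving out 1 library gave 233 to 609 above and 504 to 1255 below, for unconverted reads against RNA-seq 1031 to 2751 and 1497 to 3497, for converted against unconverted reads 217 to 1553 and 248 to 1321, and for new RNA 1075 to 1662 risen and 1876 to 2205 fallen. TMM over all genes, chosen after seeing the data, gave 1049 and 4275 for unconverted reads against RNA-seq and 3274 and 379 within SLAM-seq. The replicate numbers did not pair the libraries, and the replicate block, which gave 2301 and 2944 for unconverted reads, moved no count by over 1.5 times. The slope of total on new RNA was 0.494 to 0.656 without 1 library and 0.119 without a low-count filter. At an adjusted p under 0.01 the patterns fell to 47 and 219 (new RNA alone changed, above and below), 11 and 153 (both changed, new RNA further), 11 and 16 (opposite), 108 and 94 (total RNA further) and 14 above where neither was called. Requiring the call against unconverted reads too left 14 and 10, 8 and 36, 9 and 6, 24 and 11, and 3 and 2.

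Of 93 named genes, 90 had a called difference. When 1 library was left out 19 lost their call, 10 did under another alternative, and 0 reversed except with unconverted reads as total RNA. There, 33 lost the call and 44 changed sign. Converted minus unconverted change (log2) in the 19 of these that lay above was: Vmp1 -0.47, Frs2 -1.09, Polg2 -0.0082, Zfp54 -0.56, Zfc3h1 -0.036, Rrp12 -0.59, Lars2 -1.42, Zc3h7a -0.54, Pmepa1 -0.22, Egr1 -0.99, Mrps34 -0.50, Camk1d -2.96, Gphn -2.09, Zfp697 -0.90, Klf2 -0.043, mt-Nd2 -0.058, mt-Nd4 -0.20, Snhg1 -0.030 and Exosc6 -0.026. In the 25 with a negative difference, which was not called for Gabpa, it was: Kif20a 0.069, Psmd4 0.13, Cdc20 0.37, Gabpa 0.65, Hspa8 0.088, Cnot8 0.36, Plk2 0.063, Mrpl39 0.29, Acat2 0.47, Uqcrc1 0.30, Exosc7 0.45, Psmd5 0.50, Aurka 0.17, Pnrc2 0.060, Rpa2 0.075, Ldhb 0.45, Ints10 0.86, Noc4l 0.37, Fbxo15 0.023, Lsm1 0.14, Rbm8a 0.087, Tcl1 0.27, Utp4 0.26, Hspb8 0.24 and Serf2 0.46. Among those above, the converted minus unconverted change was itself called in Vmp1, Frs2, Lars2, Zc3h7a, Mrps34, Camk1d and Gphn. Among those with a negative difference it was called in Gabpa, Psmd5, Ints10 and Serf2. The cause of these changes of sign was not tested.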
